A study of Mus musculus with 4 samples.

Results

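Genes of the red cell lineage, 9 of the 24873 genes in the table, were examined in sorted brain cells of mice with and without tamoxifen. They were taken by symbol and fall into 4 adult globin genes (Hbb-bs, Hbb-bt, Hba-a1 and Hba-a2), whose mRNA is carried by mature red cells, and 5 genes of nucleated erythroid precursors, or erythroblasts (Slc4a1, Alas2, Klf1, Ahsp and Epor). The 9 genes were selected on their normalized counts in these same libraries, with the contrast between tamoxifen and control already known, so their own differences are described below without a test. In all 9, the lowest tamoxifen library lay above the highest control library. The globins were 2.38-fold to 5.56-fold higher by the ratio of the group means, whereas Slc4a1, Ahsp and Klf1 were 99.1-fold, 88.2-fold and 71.3-fold higher. Without control 2 these folds of means were 183 for Slc4a1, 143 for Ahsp, 9.28 for Hbb-bt, 5.88 for Hbb-bs and 5.55 for Hba-a1, each over 1.5 times the value with all libraries.

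Hemoglobin is built from alpha and beta globin chains, each holding a heme group. Erythroblasts mature in the bone marrow and, in mice, the spleen under erythropoietin, transcribe the globin genes and the genes of heme synthesis and of the red cell membrane under factors such as GATA1 and KLF1, and then lose their nucleus. The young red cell that enters the blood keeps globin mRNA for a time but makes no new RNA, and the adult brain is not a known site of red cell formation.

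The mice carried a tamoxifen-activated Cre recombinase driven by the VE-cadherin (Cdh5) promoter, which is active in endothelial cells, together with Mgp alleles flanked by loxP sites. The labels write this as Cdh5cre;Mgpflox/flox in every sample. Injections of tamoxifen (75 mg/kg, once a day over 5 days) began when the mice were 10 weeks old, and cells were taken on day 9. The control mice had the same alleles and received none, so the effect of the drug and that of the recombined gene cannot be told apart. The study's methods describe a sort for CD31+CD45- cerebral cells, a gate meant to keep endothelial cells and to remove leukocytes, whereas the sample labels read Brain tdTomato+. Each group had 2 libraries, and each library came from cells pooled from 3 mice. The table names its columns with the letters C and A. Here C stands for control and A for the tamoxifen group, a reading of the letters, since no label holds an A.

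The libraries held 35387438 to 49799321 reads on genes. The values are normalized counts, which are read counts divided by 1 factor per library, and 1 read stood for 0.719 to 1.37 normalized counts. Mgp, the floxed gene, stood at 1094 and 1352 normalized counts without tamoxifen and at 945 and 909 with it (log2 fold change -0.39, standard error 0.18, limma with Benjamini-Hochberg adjustment, adjusted p = 0.0986). Its log2 fold change was 0.08 when all libraries were given equal totals and -0.65 with quantile normalization. The tamoxifen libraries stood apart in the genes of CD31 and CD45, the markers of the sort that the study's methods describe. Pecam1, the gene of CD31, fell from 83681 and 88796 normalized counts to 15987 and 8973 (limma with Benjamini-Hochberg adjustment, adjusted p = 0.000181). Ptprc, the gene of CD45, rose from 50.7 and 83.9 to 1423 and 1119 (limma with Benjamini-Hochberg adjustment, adjusted p = 4.99e-05). A mean of 10 or more normalized counts was reached by 20485 genes, of which 43.1% had both tamoxifen libraries above both control libraries and 39.2% had both below. The smallest two-sided p that an exact permutation of 2 and 2 libraries allows for 1 gene is 0.333, so every p-value printed here is limma's, which shares the spread between libraries across genes. Fewer cells of a type and less RNA per cell cannot be told apart in such bulk samples.

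The beta globin genes lie on chromosome 7 of GRCm39, Hbb-bs from 103475730 to 103482989 and Hbb-bt from 103461727 to 103465047, both on the minus strand and 10.68 kb apart. The alpha globin genes lie on chromosome 11, Hba-a1 from 32233186 to 32234504 and Hba-a2 from 32246168 to 32247320, both on the plus strand and 11.66 kb apart. Because the genes of each pair moved in the same direction, the 150 bases before their starts are shown, as given by RefSeq (table build GRCm38.p6) and placed by exact match in GRCm39. The gene spans above are those of GENCODE, which begin further upstream. All globin windows therefore lie inside those spans. Capitals mark the letters CCNCNCCC, a core that KLF family factors can bind, CCAAT and TATAA, each searched on both strands.
Hbb-bs, chr7:103477136-103477285, minus strand: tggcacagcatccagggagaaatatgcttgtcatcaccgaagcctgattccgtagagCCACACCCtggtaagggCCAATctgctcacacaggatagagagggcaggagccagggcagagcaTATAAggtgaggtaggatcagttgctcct
Hbb-bt, chr7:103463131-103463280, minus strand: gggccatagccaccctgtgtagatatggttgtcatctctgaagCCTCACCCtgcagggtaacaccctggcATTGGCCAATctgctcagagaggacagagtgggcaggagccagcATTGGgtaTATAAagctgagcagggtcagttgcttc
Hba-a1, chr11:32233522-32233671, plus strand: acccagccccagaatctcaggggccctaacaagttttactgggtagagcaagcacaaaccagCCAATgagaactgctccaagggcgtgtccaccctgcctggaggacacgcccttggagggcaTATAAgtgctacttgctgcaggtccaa
The window of Hba-a2 shares an unbroken run of 147 bases with that of Hba-a1 and is not printed. TATAA stood 23 to 30 bases before the start in all 4 globin windows, where 14.2% of 32843 mouse windows of this length hold it. CCAAT was also found in all 4, against 24.5% of windows. The KLF letters were found in both beta globin windows and in neither alpha globin window, against 38.1% of windows. A match describes the sequence and is no evidence of binding.

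Hbb-bs, the main adult beta globin gene of these mice, had 13778 and 27747 normalized counts in the controls and 98516 and 63429 after tamoxifen. The lowest tamoxifen library was above the highest control library, and the group means were 20762 ± 9877 and 80972 ± 24810.1 (SD, n = 2), a log2 difference of 2.02 (standard error 0.39). Differences here and below are of means of log2(normalized count + 1), tamoxifen minus control, a scale on which the added 1 shrinks the differences of low values. Among the genes of each library ordered by normalized count, Hbb-bs stood at place 609 and 217 in the controls and at 12 and 18 after tamoxifen.

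Hbb-bt, the second adult beta globin gene, had 1142 and 2668 normalized counts in the controls and 12235 and 8957 after tamoxifen. It had the largest difference of the 4 globins, 2.58 on the log2 scale (standard error 0.36), and its share of the beta globin counts was 76.6 and 87.7 per 1000 in the controls and 110 and 124 per 1000 after tamoxifen. Hba-a1 had 2507 and 5283 normalized counts in the controls and 18429 and 9412 after tamoxifen, a difference of 1.86 (standard error 0.40). Hba-a2 had 701 and 1388 in the controls and 2831 and 2142 after tamoxifen, a difference of 1.32 (standard error 0.31). Both alpha globin genes were thus higher after tamoxifen in all pairs of libraries, and Hba-a2 had the smallest difference of the 9 genes. The alpha globins had 215 and 219 normalized counts per 1000 beta globin counts in the controls, and 192 and 160 after tamoxifen. The 4 globins together took 0.0353% and 0.0722% of the reads on genes in the controls, against 0.344% and 0.234% after tamoxifen.

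The split within each globin pair is uncertain. The coding sequences of Hba-a1 and Hba-a2 differ at 1 of 426 bases, and those of Hbb-bs and Hbb-bt at 1 of 441. Of all stretches of 100 bases in the GENCODE M39 transcripts, 73.6% of those of Hba-a1, 81.8% of Hba-a2, 64.6% of Hbb-bs and 54.7% of Hbb-bt also occur in another gene, in each case mainly the other gene of the pair. How reads that match more than 1 gene were counted is not given in the sources used here. A sum over a pair does not depend on how such reads were divided within it, but it does depend on whether they were counted.

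The 5 erythroblast genes differ in their roles. Slc4a1 (chromosome 11 from 102239650 to 102257029, minus strand) encodes band 3, the anion exchanger of the red cell membrane. It had 130.1 and 350.4 normalized counts in the controls, from 95 and 280 reads, and 28051 and 19595 after tamoxifen. The tamoxifen libraries were far above both controls, with a log2 difference of 6.77 (standard error 0.41), the largest of the 9 genes. Slc4a1 rose in the order of genes by normalized count from place 11518 and 9786 in the controls to place 102 and 159. Ahsp (chromosome 7 from 127901969 to 127902930, plus strand) encodes the chaperone that holds free alpha globin. It had 36.98 and 82.6 normalized counts in the controls and 6078 and 4474 after tamoxifen, with no overlap and a log2 difference of 6.53 (standard error 0.37).

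Klf1 (chromosome 8 from 85628557 to 85631934, plus strand) encodes the erythroid transcription factor that activates the adult beta globin gene. It had 16.4 and 10.01 normalized counts in the controls and 1096 and 790.1 after tamoxifen, a log2 difference of 6.07 (standard error 0.42). The control values rest on 12 and 8 reads, with exact 95% Poisson intervals of 6.20 to 21.0 and 3.45 to 15.8 reads that cover counting error only, so a difference between the controls was not detectable at this depth. Both tamoxifen libraries were far above both controls.

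Alas2 (chromosome X from 149330371 to 149353634, plus strand) encodes the erythroid form of the first enzyme of heme synthesis. It had 936 and 1648 normalized counts in the controls and 9064 and 5922 after tamoxifen, a log2 difference of 2.56 (standard error 0.30). Alas2 thus differed by about as much as Hbb-bt, and by far less than Slc4a1, Ahsp or Klf1. Epor (chromosome 9 from 21870192 to 21874879, minus strand) encodes the erythropoietin receptor, which endothelial cells can also express. It had 136 and 204 normalized counts in the controls and 501 and 391 after tamoxifen, a log2 difference of 1.41 (standard error 0.31). After quantile normalization the difference of Epor was 0.34, and that of the other 8 genes lay between 1.26 and 6.69.

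The windows of Alas2, Klf1 and Epor before their starts, from the same RefSeq table, are shown because these genes respond to GATA1 in erythroid cells. The RefSeq starts differ from those of GENCODE, so these windows overlap the gene spans given above in part. Slc4a1 and Ahsp had no entry. Capitals mark GATA with A or T before it and A or G after it, the letters that GATA factors bind, and CCNCNCCC and CCAAT, on either strand. Matches of CCNCNCCC overlap each other in Alas2 and Epor and are printed as joined capitals.
Alas2, chrX:149330263-149330412, plus strand: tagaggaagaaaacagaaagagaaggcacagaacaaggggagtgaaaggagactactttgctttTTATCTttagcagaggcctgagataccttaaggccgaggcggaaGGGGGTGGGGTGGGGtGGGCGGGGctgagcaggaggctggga
Klf1, chr8:85628461-85628610, plus strand: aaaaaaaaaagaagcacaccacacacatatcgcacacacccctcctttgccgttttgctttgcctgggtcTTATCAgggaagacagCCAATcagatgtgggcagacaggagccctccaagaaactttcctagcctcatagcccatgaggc
Epor, chr9:21874873-21875022, minus strand: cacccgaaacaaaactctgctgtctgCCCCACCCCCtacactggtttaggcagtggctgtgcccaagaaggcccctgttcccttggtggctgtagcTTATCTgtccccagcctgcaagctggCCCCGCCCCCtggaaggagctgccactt
All 3 windows hold a GATA match, on the opposite strand, beginning 86 bases before the start in Alas2, 80 bases in Klf1 and 54 bases in Epor. None of the 4 globin windows holds one, and 16% of all windows do. GATA and KLF letters occur together in Alas2 and Epor, against 3.44% of windows. Genes with GATA letters thus include one with a large difference, Klf1, and those with small ones, Alas2 and Epor.

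**Figure D1:**
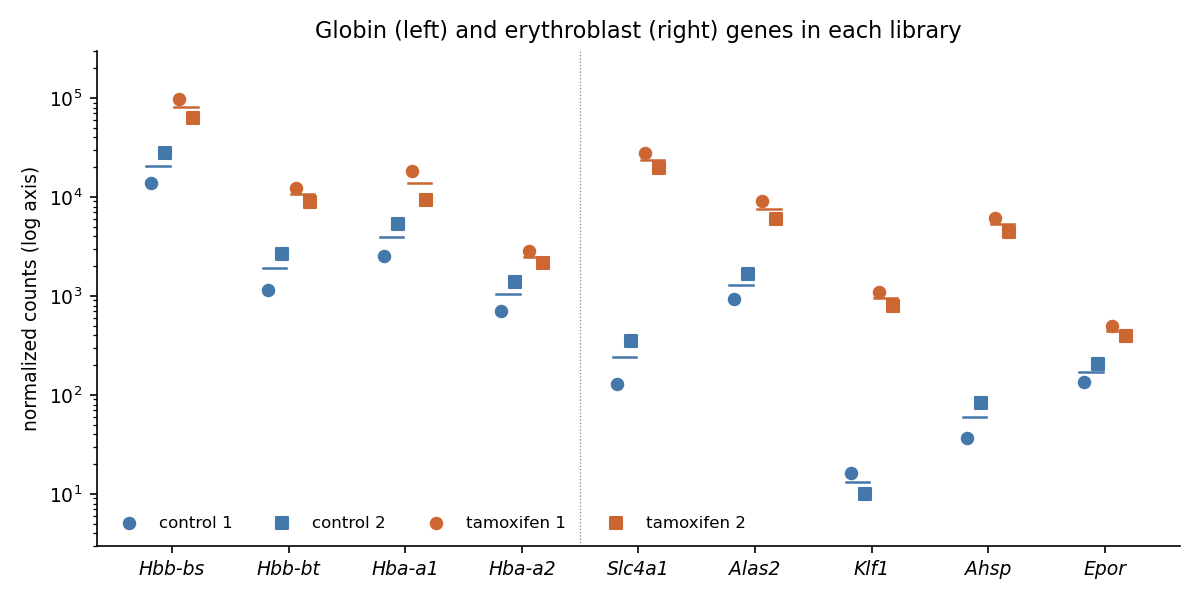
Normalized counts (log axis) of the 4 globin genes and the 5 erythroblast genes in each library. Circles and squares are libraries 1 and 2, blue is control, orange is tamoxifen, and horizontal lines are group means. The tamoxifen points lie above the control points for 9 of 9 genes, and the gap is widest for Slc4a1 (240.3 against 23823), Klf1 and Ahsp.

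The plot of the 9 genes by library shows how far the gene sets differed in size of change. The median log2 difference was 1.94 for the 4 globins, from 1.32 to 2.58, and 6.07 for the 5 erythroblast genes, from 1.41 to 6.77. The median of all 20485 tested genes was 0.05. The sets overlapped, since Epor and Alas2 lay within the range of the globins. Both tamoxifen libraries lay above both controls in 9 of the 9 genes and in 43.1% of all tested genes, and nothing is read from this, because the genes were selected on it.

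To compare erythroblast genes with globins without any scaling between libraries, ratios were taken within each library. Slc4a1, Alas2, Klf1 and Ahsp together had 61.7 and 56.4 normalized counts per 1000 counts of the 4 globins in the controls, and 335 and 367 after tamoxifen. The ratio was thus alike in both libraries of a group and 5.94-fold higher after tamoxifen, and the lowest tamoxifen value was 5.43-fold above the highest control value. With Slc4a1 left out of the sum, the values were 54.6 and 46.9 in the controls and 123.0 and 133 after tamoxifen, a 2.52-fold difference. Most of the summed difference therefore came from Slc4a1.

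Single genes differed in the same ratio. Slc4a1 had 7.18 and 9.45 counts per 1000 globin counts in the controls and 212 and 233 after tamoxifen, which is 26.8-fold higher. Ahsp had 2.04 and 2.23 in the controls and 46.0 and 53.3 after tamoxifen, which is 23.3-fold higher. Klf1, whose product acts in the nucleus, had 0.907 and 0.270 in the controls and 8.30 and 9.41 after tamoxifen, which is 15.1-fold higher. This fold rests on few control reads and was 32.8 without control 1 and 9.77 without control 2. In these 3 genes the tamoxifen values were many times the control values and close to each other.

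Alas2 and Epor were nearer to the globins. Alas2 had 51.6 and 44.4 counts per 1000 globin counts in the controls and 68.7 and 70.6 after tamoxifen, 1.45-fold higher with no overlap. Epor was the only one of the 5 genes with a lower ratio, with 7.48 and 5.50 in the controls and 3.79 and 4.66 after tamoxifen, again with no overlap. In the controls Alas2 made up most of the summed erythroblast counts, and after tamoxifen Slc4a1 did.

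**Figure D2:**
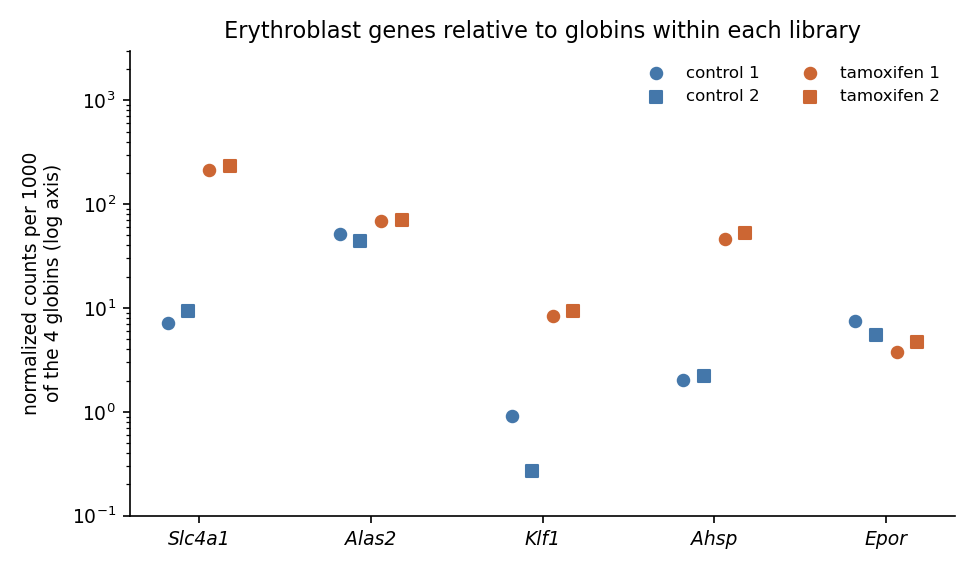
Normalized counts of each erythroblast gene per 1000 normalized counts of the 4 globins (log axis), computed inside each library. Circles and squares are libraries 1 and 2, blue is control and orange is tamoxifen. Slc4a1, Klf1 and Ahsp lie 26.8-fold, 15.1-fold (9.77 to 32.8 with 1 control left out) and 23.3-fold higher after tamoxifen, Alas2 lies 1.45-fold higher, and Epor lies lower.

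The 2 control libraries differed in most of these genes. Control 2 was above control 1 for 8 of the 9 genes. The ratios had a median of 2.01 over the 9 genes and a highest value of 2.69 for Slc4a1. Klf1 stood at 0.609, on only 12 and 8 reads, a difference not detectable at this depth. Over all tested genes the median ratio of control 2 to control 1 was 1.03. The tamoxifen libraries were closer, and tamoxifen 1 was above tamoxifen 2 for 9 of 9 genes, by 1.28 for Epor to 1.96 for Hba-a1, with an all-gene median of 1.06. The globins and Slc4a1 thus differed in the same direction between the controls, while the summed erythroblast genes per 1000 globins stood at 61.7 and 56.4. Without control 1, the log2 difference of Slc4a1 was 6.06 and that of Hbb-bt 1.97, and without control 2 they were 7.48 and 3.19. On this log2 scale no other member moved by over 1.5-fold when 1 library was left out.

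Levels of different genes were compared per kilobase of the GENCODE canonical transcript. In the controls the order of the mean levels was Hbb-bs, Hba-a1, Hbb-bt, Hba-a2, Alas2, Ahsp, Epor, Slc4a1 and Klf1, from 31269 normalized counts per kb for Hbb-bs to 8.57 for Klf1. The 4 globins thus came first and the erythroblast genes after them. Neighbours whose libraries overlapped in this order were Hba-a1 with Hbb-bt, Hbb-bt with Hba-a2, Ahsp with Epor, and Epor with Slc4a1.

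After tamoxifen the order was Hbb-bs, Hba-a1, Hbb-bt, Ahsp, Slc4a1, Hba-a2, Alas2, Klf1 and Epor, from 121946 normalized counts per kb for Hbb-bs to 243 for Epor. Ahsp, at 110 per kb in the controls and 9716 after tamoxifen, and Slc4a1, at 52.9 and 5242, stood above Hba-a2, at 3843, by their means. Neighbours that overlapped after tamoxifen were Hba-a1 with Hbb-bt, Slc4a1 with Hba-a2, and Hba-a2 with Alas2. The order depends on the length used, since with all exons joined Ahsp, at 8867 per kb, came above Hbb-bt, at 6383, with separate ranges, and Alas2, at 2789.7, above Hba-a2, at 2702. Epor passed from the seventh place to the last, although its own level per kb was higher after tamoxifen than in the controls, at 92.7 per kb.

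Several erythroblast genes overlap a neighbour on the opposite strand. Of all stretches of 100 bases, 49.7% of those of Klf1 lie also in Gcdh, 39.3% of those of Epor in Swsap1 and 11% of those of Alas2 in Apex2, while Slc4a1 and Ahsp share none. The library kit marks strand, but the strand setting of the counting is not given in the sources used here. Gcdh had 988 and 1125 normalized counts in the controls and 1371 and 1330.0 after tamoxifen, and its log2 fold change of 0.36 was not called (limma with Benjamini-Hochberg adjustment, adjusted p = 0.100). Swsap1 had 593 and 727 in the controls and 414 and 341 after tamoxifen, with a log2 fold change of -0.80 that was under the size limit (limma with Benjamini-Hochberg adjustment, adjusted p = 0.0186). Apex2 had 608 and 537 against 499 and 436 and was not called either (log2 fold change -0.29, limma with Benjamini-Hochberg adjustment, adjusted p = 0.272), and its sign turned with equal totals, at 0.18. The part of shared reads in the erythroblast values was not tested.

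To place the 9 genes in their pathway, 68 other genes of red cell formation were arranged by role in 7 groups. The table held 63 of them, and 62 passed the filter on low values. A gene was called when its adjusted p from limma (Benjamini-Hochberg, over all tested genes) was under 0.05 and its log2 fold change was beyond 1 in size. By these limits 35 of the 62 rose, 9 fell and 18 were not called. Among all tested genes 44.7% were called, 28.6% as higher and 16% as lower. The counts of single groups below are to be read beside these shares. The median log2 fold change of the list was 1.43, against 0.05 over all genes. The list was chosen with earlier results of these data known. Its counts and p-values are therefore descriptive and are no independent test. Rhag, Trim58, Tspo2, Erfe and Hbq1b had at most 3 reads in each control. They passed the filter on low values only through the tamoxifen libraries.

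Red cell membrane and skeleton genes, the companions of Slc4a1, rose in 13 of 15 cases. Sptb, the gene of the beta chain of red cell spectrin, had 111 and 188 normalized counts in the controls and 7315 and 5689 after tamoxifen (limma with Benjamini-Hochberg adjustment, adjusted p = 9.3e-06). Rhag, which encodes the Rh-associated glycoprotein, had 3 reads in each control library and 1575 and 1105 normalized counts after tamoxifen. Epb41, with a log2 fold change of 0.35, and Mpp1, with 0.01, were not called, and both are membrane skeleton genes that were abundant in every library, the lowest value being 2321 for Mpp1 in tamoxifen 2.

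Among heme synthesis genes, 4 of 11 tested rose, 1 fell and 6 were not called. Over all tested genes 28.6% were called higher and 16% lower, so nothing is read from these counts about heme synthesis. Fech, which puts iron into heme, rose from 2123 and 2648 normalized counts to 7128 and 5343 (limma with Benjamini-Hochberg adjustment, adjusted p = 0.000674). Alas1, the form of the first enzyme found in all tissues, fell from 17853 and 17516 to 5127 and 2881, whereas its erythroid counterpart Alas2 was higher after tamoxifen. Alad, the next enzyme, had 3307 and 2683 in the controls and 3195 and 1976 after tamoxifen, with overlapping groups.

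In iron uptake, Slc25a37, the iron carrier of the mitochondrion, rose from 1372 and 1333 normalized counts to 7670.0 and 5507 (limma with Benjamini-Hochberg adjustment, adjusted p = 6.91e-05). Tfrc, the transferrin receptor, which brain endothelial cells also express, fell from 60176 and 64578 to 32287 and 20606, and its log2 fold change of -1.27 became -0.80 with equal totals and -0.30 with quantile normalization, so that the call was lost under both. Steap3 and Slc11a2 were not called, at -0.03 and -0.05.

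Of 11 erythroid transcription factor genes, 6 rose, 2 fell and 3 were not called. Gata1 had 5.48 and 6.26 normalized counts in the controls and 848 and 628 after tamoxifen, and Gfi1b had 5.48 and 1.25 against 778 and 462. Both factors thus had few reads in the controls, as Klf1 did. Lmo2, which endothelial cells also use, fell from 17420.3 and 17862 to 4619 and 2838 (limma with Benjamini-Hochberg adjustment, adjusted p = 0.000156). Zbtb7a fell by 1.07 on the log2 scale, a call that was lost under both other scalings, and Ldb1 and Zfpm1 were not called, at -0.29 and -0.92, although Zfpm1 passed without control 1, at -1.01, and without tamoxifen 1, at -1.22.

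Erythropoietin signalling was the group with the most falls, 4 of 7, with 2 rises. Jak2, the kinase bound to the erythropoietin receptor, fell from 9996 and 9163 normalized counts to 3791 and 3052. Cish, a feedback inhibitor, fell by 1.93 on the log2 scale, Bcl2l1, a survival gene, by 1.95, and Stat5b by 1.04, a call lost under both other scalings. Erfe, the hormone gene that erythroblasts switch on in response to erythropoietin, had 1.37 and 0 normalized counts in the controls and 68.3 and 37.4 after tamoxifen (limma with Benjamini-Hochberg adjustment, adjusted p = 0.000605). Stat5a, the paralog of Stat5b, rose from 234 and 332 normalized counts to 676 and 623. The receptor gene Epor was higher after tamoxifen, by only 0.34 on the log2 scale with quantile normalization, while 4 of the 7 signalling genes fell. Bcl2l1 had 16052 and 17266 normalized counts in the controls, where Gata1 had 5.48 and 6.26. The part of cells other than erythroblasts in the signalling values was not tested.

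Late maturation genes rose in 8 of 12 cases and fell in none by these criteria. Trim58 and Tspo2, both expressed late in erythroid maturation, had at most 3 reads in each control library and reached 247 and 168 and 431 and 281 normalized counts after tamoxifen. Car2 and Prdx2, present in many cells, rose from 4757 and 5189 to 15244 and 12576 and from 3487 and 4391 to 9929 and 9312. Xpo7 and Bnip3l had log2 fold changes of 0.75 and -0.78 and were under the size limit. Of the other globin genes, Hbq1b had 0 and 1.25 normalized counts in the controls and 120.3 and 104 after tamoxifen, and the embryonic gene Hbb-y went the other way, from 39.7 and 42.6 to 5.42 and 2.88 (limma with Benjamini-Hochberg adjustment, adjusted p = 0.00329).

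**Figure D3:**
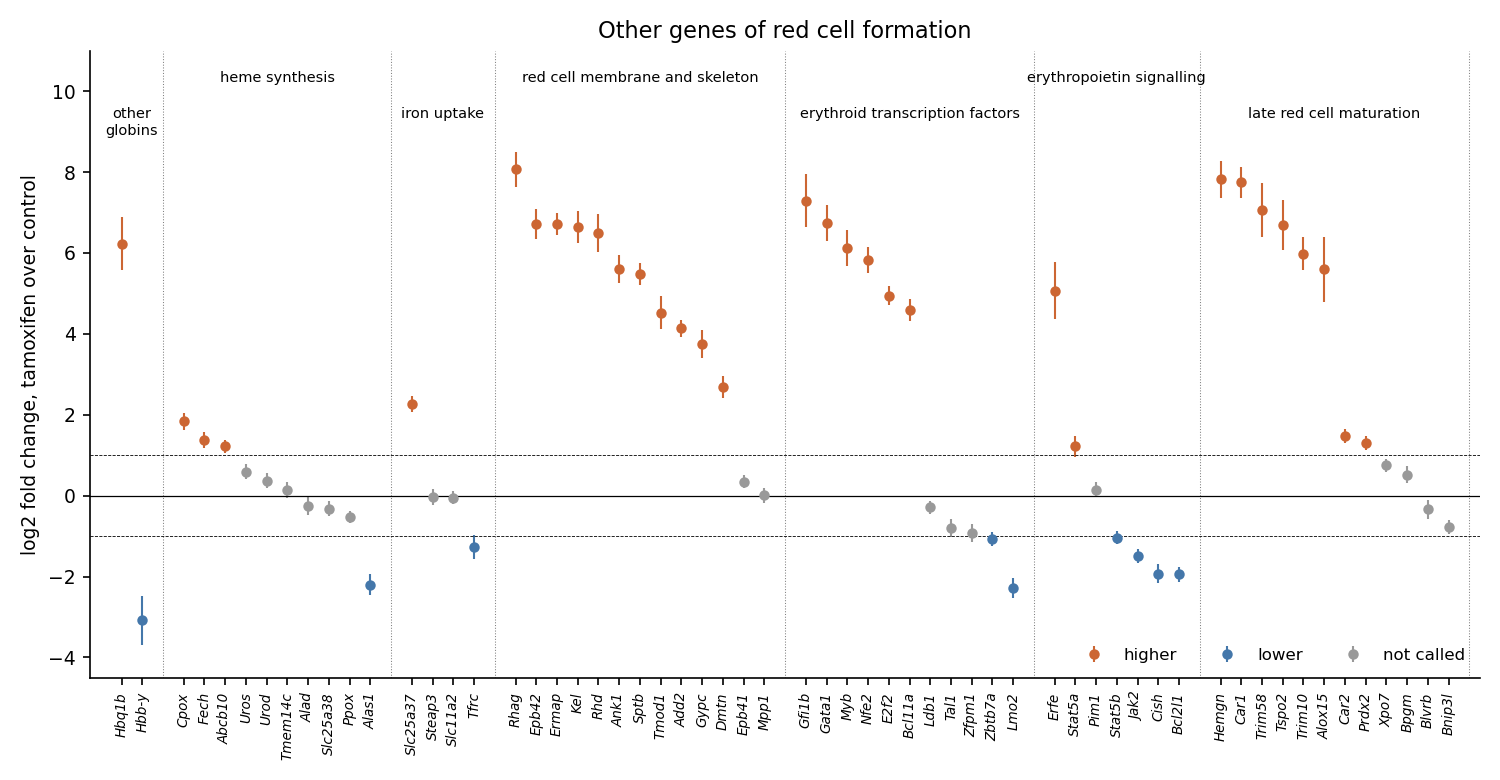
Log2 fold change of 59 of the 62 tested pathway genes, tamoxifen over control, arranged by role and sorted within each group. Points are limma estimates, bars are standard errors, dashed lines mark 1 and -1, orange genes rose, blue genes fell and grey genes were not called. Membrane and late maturation genes hold no blue point, and erythropoietin signalling holds 4.

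Genes of other blood cells moved with the erythroid genes. The marker lists too were chosen with earlier results of these data known. By the same limits 28.6% of all tested genes rose and 16% fell. The neutrophil lineage list rose in 9 of 9 genes, with a summed level of 301 and 233 normalized counts in the controls and 110732 and 82440 after tamoxifen, led by S100a9. Its ratio to the erythroid genes was not fixed, since Ngp had 579 and 136 counts per 1000 of Slc4a1 in the controls and 1023 and 1005 after tamoxifen. The defining neutrophil gene Ly6g had 0 reads in both controls and 164 and 134 normalized counts after tamoxifen. Of 9 tested B-cell precursor genes 8 rose, among them Rag1 and Rag2 from 0 reads in both controls, and Ebf1, the one with the highest counts, fell. Because of Ebf1 the sum of that list was 8164 and 8115 in the controls and 7468 and 6137 after tamoxifen. Ebf1 had 8120 and 8062 in the controls, where the highest value of the 8 that rose was 31.3, for Cd79a. Which cells held the Ebf1 RNA was not tested, so the sum is not read as a level of B-cell precursor RNA. Of the 8, 5 had at most 3 reads in each control and passed the filter on low values only through the tamoxifen libraries, as did 2 neutrophil genes.

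The megakaryocyte and platelet list rose in 9 of 9 genes, from a sum of 430.1 and 752 normalized counts to 3834 and 2937, with Itga2b the highest. It also differed between the controls as the globins did, with a median ratio of control 2 to control 1 of 2.88. Basophil and mast cell genes rose in 4 of 4 tested, led by Prss34, from sums of 0 and 3.75 to 368 and 267, with Mcpt8 and Ms4a2 at 0 reads in both controls. All 4 had at most 3 reads in each control and passed the filter on low values only through the tamoxifen libraries. Nothing is therefore read from this count. The same limit held for 2 early progenitor genes and 1 macrophage gene. Early progenitor genes rose in 3 of 5, led by Kit, from sums of 3833 and 3519 to 6288 and 5847. Macrophage genes rose in 6 of 7, led by Vcam1, from sums of 2933 and 4127 to 12474.5 and 13906. The basophil, early progenitor and macrophage sums were thus all higher after tamoxifen. Single genes made up most of 2 of them in every library. Kit had 2315 and 1961 normalized counts in the controls and 4953 and 4055 after tamoxifen. Vcam1 had 2050 and 2588 in the controls and 9058 and 11136 after tamoxifen, so the macrophage sum mainly follows that gene. Csf1r, the next highest of that list and the one not called, had 551 and 1038 in the controls and 1366 and 1226 after tamoxifen. Which cells held the Kit and Vcam1 RNA was not tested, so these 2 sums are not read as levels of progenitor or macrophage RNA. Cell cycle genes rose in 8 of 8, from sums of 1204 and 1476 to 86313 and 83262, with Mki67 the highest. The endothelial list fell in 10 of 10 genes, from sums of 1327300.0 and 1265120.0 to 221002 and 106365, led by Flt1. The part of these other cells in the erythroid values was not tested.

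**Figure D4:**
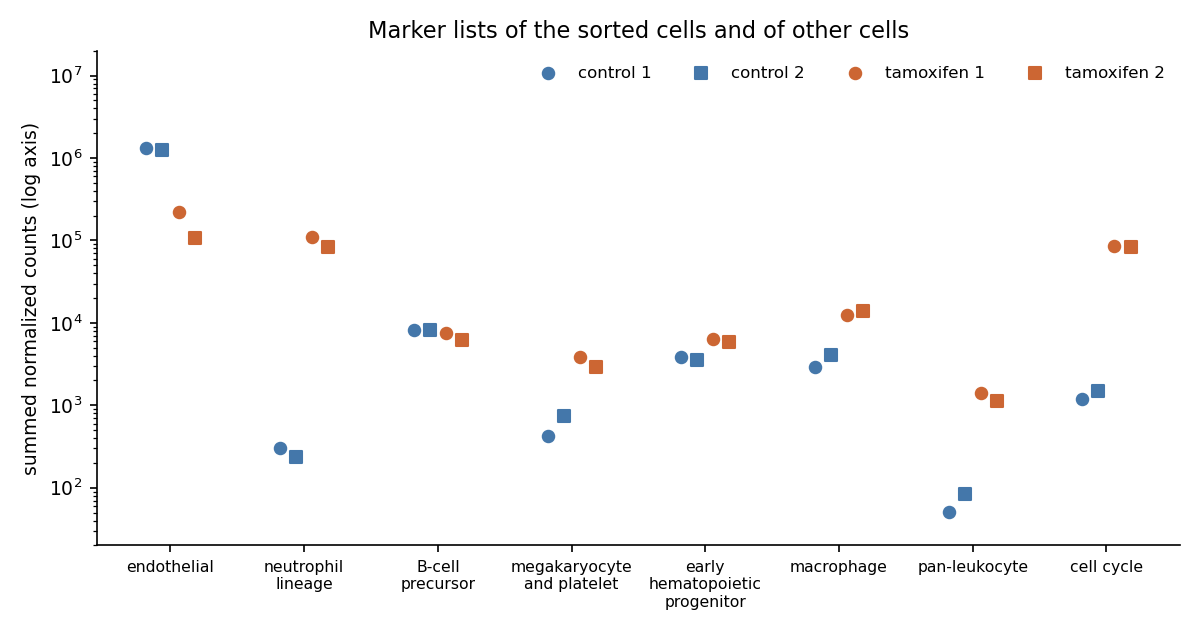
Summed normalized counts (log axis) of 8 marker lists in each library. Circles and squares are libraries 1 and 2, blue is control and orange is tamoxifen, and the basophil and mast cell list, at 0 in control 1, is not drawn. The endothelial sum is lower after tamoxifen, and the neutrophil, megakaryocyte and cell cycle sums are higher.

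Outside these lists, the genes whose pattern over the 4 libraries was most like the mean of Slc4a1, Alas2, Klf1 and Ahsp were Ikzf1, Flnc, Lgals1, Hmga2 and Gtse1. They were the nearest of 7710 genes with means of 1000 or more, by the root mean square difference of centred log2 values, which was 0.0733 for Ikzf1 and 0.137 for Gtse1. Ikzf1 had 35.6 and 50.1 normalized counts in the controls and 2392 and 1638 after tamoxifen. Lgals1 had the highest control value of these 5 genes, at 280, so all 5 reached a mean of 1000 only through the tamoxifen libraries. Among the 5 genes most like the mean of the 4 globins were Synpo, Fkbp5, Galk1 and Bgn, with differences from 0.137 for Synpo to 0.204 for Bgn. Synpo had 418 and 728 in the controls and 2233 and 1678 after tamoxifen. The 2 sets share no gene, and with 4 libraries such likeness rests on few points. Both reference means came from genes selected on the contrast between the groups, so the likeness partly restates that contrast.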

How the data were processed

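Expression was measured by RNA-Seq in 4 libraries of sorted brain cells, 2 per group, with 3 mice pooled for each. The labels do not say whether libraries of a group differ in more than the mice pooled, so p-values measure the spread between these libraries. The authors used a stranded mRNA kit and STAR 2.7.10a with GRCm39, which also counted the reads. They dropped genes of low counts before normalization in DESeq2 1.36.0. The annotation release, strand setting and low-count limit are not given in the sources used here. The deposited signal of each gene is its read count over 1 factor per library, set by the authors. Dividing by the smallest step in each column recovered whole reads for 100% of values, within 0.01 read. The floor of 3 reads equals 2.16 to 4.11 normalized counts. Columns of no sample numbered 0.

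Fits used limma 3.58.1 (R 4.3.3) with a mean-variance trend in eBayes, on log2(normalized count + 1) over 20485 genes whose mean was 10 or more, with Benjamini-Hochberg adjustment. A call needed both an adjusted p under 0.05 and a log2 fold change beyond 1 in size. The model was tested on data simulated from these libraries, with a small set of genes changed evenly in both directions. Far fewer genes changed there than were called here, and the library factors were known. The simulation therefore does not test the scaling or the calls in these data. The 9 genes and all lists were chosen with earlier results of these data known, so members have no p. Each choice was varied alone, with other pseudocounts (0.5 and 5), filters (none and 100), scalings (equal totals and quantile normalization) and variance models (no trend, and a replicate block). Recovered reads were also tested with edgeR 4.0.16 and with DESeq2 1.42.0. Calls by adjusted p alone and fits without 1 library completed the set. Named pathway genes were, per role group, the 4 most abundant tested genes, every gene that fell, and every tested gene with at most 3 reads in both libraries of a group, 31 in all, and a few of the genes that the rules name are not reported here. Each marker list is represented by its gene of highest mean normalized count. Gata1, Gfi1b, Stat5a, Ngp, Ly6g, Rag1, Rag2, Mcpt8 and Ms4a2 were named after their values were seen. No row was found for 5 pathway symbols (Hbb-bh1, Hbb-bh2, Hba-x, Icam4 and Epo) and 3 marker symbols (Vpreb1, Gp1bb and Fcer1a). Locations and lengths came from GENCODE M39, with joined exons as another length, and RefSeq start windows of 150 bases matched 7 of the 9 genes. Tables and sequences were handled in Python 3.11.15 with pandas 2.3.3, scipy 1.17.1 and Biopython 1.88.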

Additional observations from a re-analysis of the deposited data

How the results depend on the processing

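The 35 pathway genes that rose and the 9 that fell changed to 33 to 37 and to 6 to 13 under the alternatives tried. The median log2 difference of the 9 members, 2.56, lay between 1.97 and 2.97 with 1 library left out, and the 1.97 came without control 1. The ratio of 4 erythroblast genes to globins, 5.94-fold, was 2.52-fold without Slc4a1 and 15.1-fold with Klf1 alone, and 5.68-fold to 6.23-fold with 1 library left out, and the fold of Klf1 alone was 9.77 to 32.8, an alternative chosen after seeing the data, as were the folds of means with 1 library left out. Rescaling to equal totals moved the median of all genes by 0.47 and quantile normalization by -0.25, and the share of calls that were rises went from 64.1% to 79.7% and 47.2%. The number of genes called, 9151, was 5934 with a filter at 100, 5811 without tamoxifen 1, 4979 without tamoxifen 2, 9241 with edgeR and 8739 with DESeq2 on the recovered reads. Among the 31 named pathway genes, signs turned only in genes that were not called. With equal totals, Alad had 0.22, Steap3 0.44, Slc11a2 0.42 and Ldb1 0.18. With quantile normalization, Steap3 had 0.21 and Ldb1 0.22, and with DESeq2 Steap3 had 0.0039. Without tamoxifen 2, Alad had 0.10, Steap3 0.20 and Slc11a2 0.028, and with any 1 library left out they ranged down to -0.59, -0.27 and -0.12. Mpp1 had -0.08 without control 1 and -0.20 without tamoxifen 1, and Pim1 ranged from -0.033 without tamoxifen 1 to 0.32 without tamoxifen 2. Tfrc lost its call without tamoxifen 2, as did Zbtb7a and Stat5b, which also lost it without control 2. Xpo7 gained a call under both other scalings, and Zfpm1 gained one as lower without control 1 and without tamoxifen 1. By adjusted p alone, Zfpm1, Xpo7 and Bnip3l passed. The causes were not tested. With joined exons as the length, mean levels after tamoxifen fell to 49646 normalized counts per kb for Hbb-bs, 6383 for Hbb-bt, 2702 for Hba-a2 and 199.5 for Epor, and the order of genes changed. Libraries of the same number did not deviate together (correlation over genes 0.03, n = 20485 genes), so the numbers were not taken as pairs, and the replicate block called 9525 genes, with 35 pathway genes higher and 9 lower.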
